A study of Mus musculus with 12 samples.

Results

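Binding of RNA polymerase II (Pol II) at 3 genes, Txnip, Gm15441 and Arrdc4, was examined in epithelium of the mouse duodenum by chromatin immunoprecipitation and sequencing (ChIP-seq). They were chosen by gene name with earlier results of these data in view, as Txnip, its antisense neighbour Gm15441 and the related arrestin gene Arrdc4, each required to be present in both tables of comparisons that the authors deposited. All 3 were among the 6429 genes of those tables. Because the log2 fold changes of the 3 genes were known when they were chosen, their values are given as a description, with standard errors (SE) and no test. The tests given concern other genes, whose lists were also chosen with earlier results of these data known. Counts per list are thus descriptions set beside the share of all genes.

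Txnip encodes thioredoxin-interacting protein, an alpha-arrestin that binds thioredoxin and restrains glucose uptake by drawing glucose transporters from the cell surface. Arrdc4 encodes its close relative, another alpha-arrestin that restrains glucose uptake. Transcription of both genes is known to respond to sugar through the related factors MondoA and ChREBP, which pair with MLX and bind carbohydrate response elements in promoters. Gm15441 is a long noncoding RNA transcribed from the strand opposite Txnip. In mouse liver it is known as a target of the fasting-responsive nuclear receptor PPARA that lowers Txnip.

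The labels list 12 libraries, of which 9 are Pol II libraries in groups of 3 and 3 are inputs. The WT villus and WT crypt groups came from wild-type mice given oil vehicle. The third group was villus of mice labelled Hnf4αγ DKO, which lack the transcription factors HNF4A and HNF4G by their label and received tamoxifen at 50 mg/kg/day on 2 days, with tissue taken 1 day after the last dose. Epithelium was freed with EDTA for 25 min in the mutant and 35 min in the wild type, and a 70 µm filter parted villi from crypts, so genotype, tamoxifen and EDTA time cannot be told apart. The labels used here name neither the driver of the knockout nor the ages of the mice, and no crypts of the mutant were collected.

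The data are the authors' deposited mean Pol II signal per gene, which averages the libraries' counts after division by size factors, and their log2 fold changes for WT villus over WT crypt and WT villus over labelled-DKO villus. No value per library was used, and depth per library is not known from these tables. Whether a group had more cells that transcribe a gene or more Pol II per cell cannot be told apart in such bulk samples. In the authors' deposited table the targeted genes did not show a loss: WT villus over labelled-DKO villus came to -0.54 ± 0.14 (log2, SE) at Hnf4a and to -1.45 ± 0.22 at Hnf4g, so both carried more Pol II in the villi labelled DKO. The number of libraries in the authors' fit is not stated. Every direction between genotypes below therefore rests on the labels, on the table's name and on a check of its sign. Of the enterocyte markers 10 of 11 were in the tables, and all 10 were called higher in WT villus in both. Of all genes 18.6% were called so against crypt and 22.4% against labelled-DKO villus. Their rebuilt levels summed to 11246 in WT villus, 4585 in crypt and 3917 in labelled-DKO villus. Fabp1, Anpep and Vil1 had a higher level in labelled-DKO villus than in crypt, and the other markers a lower one. Between these groups 1 of the 10 passed on the labelled-DKO side and 2 on the crypt side, against 6.41% and 7.19% of all genes. Of 12 crypt markers 3 were in the tables (Axin2, Sox9 and Pcna), all called higher in crypt than WT villus, against 18.8% of all genes. Their levels summed to 325 in WT villus, 499 in crypt and 411 in labelled-DKO villus. Between the genotypes 1 of the 3 passed as higher in labelled-DKO villus and 0 in WT villus, against 29.5% and 22.4% of all genes. It was Pcna, a gene of DNA replication, at -0.62 ± 0.20 (DESeq2 adjusted p 0.00568 in the authors' deposited table). Axin2 at -0.38 ± 0.17 (DESeq2 adjusted p 0.0531) and Sox9 at 0.26 ± 0.19 (DESeq2 adjusted p 0.251) did not pass. The stem cell markers Lgr5 and Olfm4 and all 7 mesenchyme markers were not among the genes tested. The part of the mix of cells in the values below was not tested.

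The promoters of Txnip and Arrdc4 are shown first, since both members are known as sugar-responsive genes and their letters can be set beside their Pol II values. Each is the 300 bases from 250 before to 50 after the RefSeq start of the gene in build GRCm38.p6, 5′ to 3′ on the gene's strand, with Txnip at chr3:96557707-96558006 on the plus strand and Arrdc4 at chr7:68749189-68749488 on the minus strand. Of the 3 members 2 matched an entry of this table, and Gm15441 did not. Capitals mark the letters CACGNG (the letters that recur in a carbohydrate response element), CCAAT and GTAAACA (a forkhead factor motif), on either strand.
Txnip: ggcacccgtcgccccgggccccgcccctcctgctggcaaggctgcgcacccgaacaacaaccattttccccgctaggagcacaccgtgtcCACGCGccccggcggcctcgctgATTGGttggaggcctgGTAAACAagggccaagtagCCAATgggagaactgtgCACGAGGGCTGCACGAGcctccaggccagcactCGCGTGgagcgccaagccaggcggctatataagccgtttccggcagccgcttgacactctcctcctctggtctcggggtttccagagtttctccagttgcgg
Arrdc4: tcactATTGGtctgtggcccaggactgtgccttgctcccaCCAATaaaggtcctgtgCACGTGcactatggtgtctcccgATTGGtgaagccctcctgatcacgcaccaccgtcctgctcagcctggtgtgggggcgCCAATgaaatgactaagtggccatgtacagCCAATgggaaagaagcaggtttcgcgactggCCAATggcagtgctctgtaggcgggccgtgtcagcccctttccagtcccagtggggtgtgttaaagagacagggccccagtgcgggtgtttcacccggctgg

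The Txnip promoter held 4 matches to CACGNG, of which 2 lay in a row on the plus strand with 5 bases between them. This pair, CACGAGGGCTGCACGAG, began 85 bases before the start site, and it has the spacing of a carbohydrate response element. A pair of this form on 1 strand was found in 16 of 32851 RefSeq promoters of the same length (0.0487%). Other forms of the element were not searched for, so this is not the share of promoters with a carbohydrate response element. Single CACGNG matches were in 27.5% of them. The same Txnip promoter held CCAAT, the letters bound by NF-Y, at 137 bases before the start on the minus strand and at 102 on the plus strand, and GTAAACA at 121 bases on the plus strand. CCAAT was in 37.4% of all promoters and GTAAACA in 3.65%. The Arrdc4 promoter held 6 CCAAT matches and 1 CACGTG, at 193 bases before the start, which reads as CACGNG on both strands. It held no pair of the searched form. TATAAA and the HNF4 motif letters CAAAGTCCA and CAAAGTTCA, present in 13.6%, 0.475% and 0.390% of promoters, were in neither window. The Txnip window does hold the similar letters TATATAAG, a form that was not searched for. A match is a string of letters and not a measured site. No match says only that these letters are not in this window.

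In the authors' coordinates, build mm9 per the submitters' processing notes, Txnip ran on the plus strand of chromosome 3 from 96361880 to 96365780, a span of 3901 bp. Gm15441 ran on the minus strand from 96370724 down to 96359691, a span of 11034 bp. It began 4944 bp past the end of Txnip and ended 2189 bp before the start of Txnip, so that Txnip lay wholly inside it. Arrdc4 lay on the minus strand of chromosome 7 from 75894124, with a transcript of 7646 bp and a longer one of 12245 bp that share the start.

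The 2 deposited count files define a 402 bp promoter window and a gene body window for each transcript. The 2 Txnip transcripts shared their windows. The Txnip gene body window (3051 bp) and its promoter window both fell wholly within the Gm15441 gene body window (11884 bp), of which they made up 25.7% and 3.38%. The file headers record that a read pair was assigned to every window it overlapped, with no option for strand. Pol II over Txnip would thus also be counted for Gm15441 in the gene body file. The promoter windows of Txnip and Gm15441 did not overlap each other, as their starts lay 8844 bp apart.

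The gene body windows also differed in kind between the strands. All 19858 windows on the plus strand started 350 bp past the start site. All 21190 windows on the minus strand instead began 350 bp upstream of the start site and held the whole promoter window. Txnip, on the plus strand, has a gene body window free of its promoter, while those of Gm15441 and Arrdc4 include theirs. On genes with 1 RefSeq transcript, 4414 of 4857 minus strand windows were 850 bp longer than the gene, and 3283 of 3717 plus strand windows were 850 bp shorter.

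**Figure D1:**
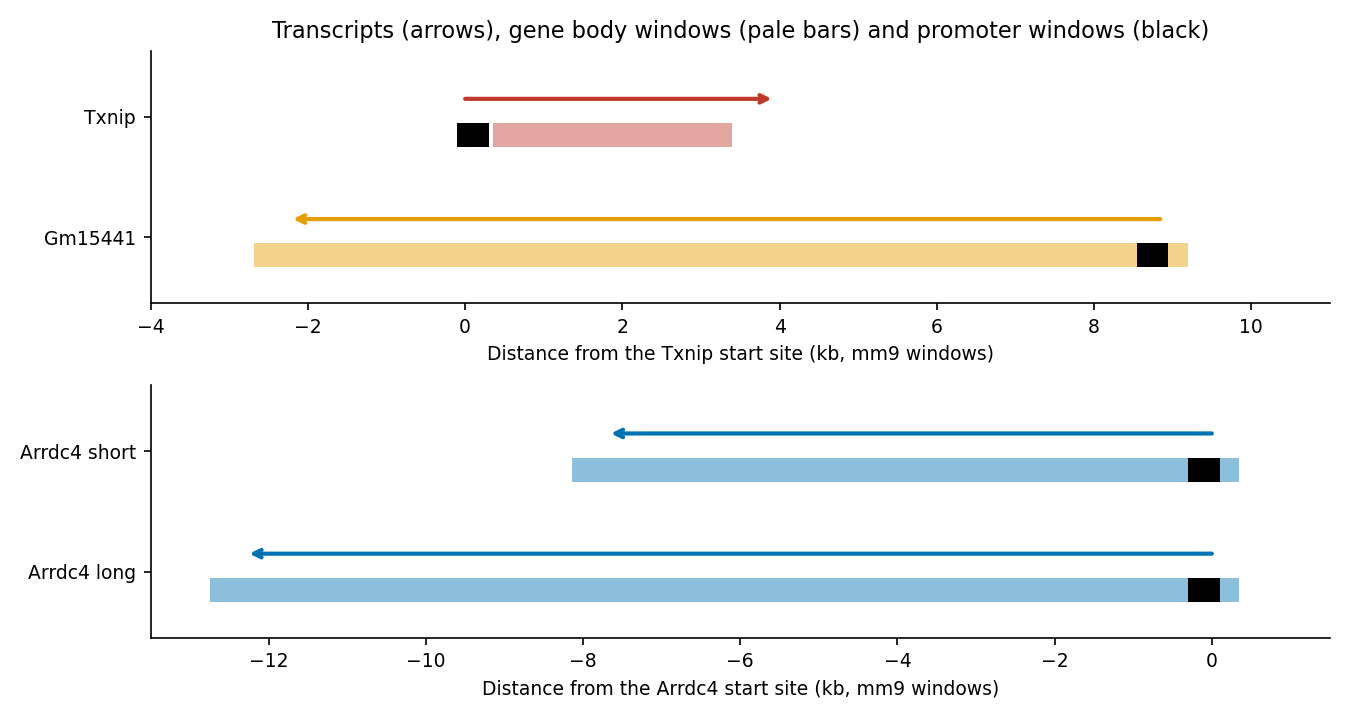
Transcripts and counted windows of Txnip with Gm15441 (top) and of the 2 Arrdc4 transcripts (bottom), as distance in kb from the start site of Txnip or Arrdc4. Arrows run from start to end of a transcript, pale bars are gene body windows and black bars are 402 bp promoter windows. Both Txnip windows lie inside the Gm15441 gene body window, and the minus strand gene body windows hold their promoter windows.

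The deposited mean signal was 987 normalised counts at Txnip and 789 at Gm15441 in the authors' deposited tables, higher at the inner gene. With shared read pairs given to both, a count over an outer window cannot be lower than that over a window inside it, if each window is counted once. If the windows of all transcripts of a gene are summed, the 2 Txnip transcripts count the same window again, and per transcript Txnip came to 494 and Gm15441 to 789. How counts were joined per gene, and over which window, is not stated. Among 128 pairs of genes with 1 distinct gene body window each, the inner one wholly within the outer, 7 (5.47%) had the higher mean signal at the inner gene as deposited, and 5 of the 7 also per transcript, without Txnip. Some of the 7 pairs, such as 5730408K05Rik at 138 inside Lbhd1 at 78.6, have 1 transcript at each gene. No window is then counted again, yet the inner value lies above what gene body counts would allow. The reason was not tested. How far the Pol II over Txnip or Gm15441 enters the value of the other was not tested.

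Txnip ranked 122nd of 6429 genes by mean signal, Gm15441 210th, and Arrdc4, at 176 normalised counts, 2617th. These ranks are of signal per gene and not per length. The mean of each group was rebuilt from the deposited mean signal and the pair of deposited fold changes, taking the groups as equal in size. The rebuilt Txnip signal was 449 in WT crypt, 627 in WT villus and 1887 in labelled-DKO villus. The mutant villus stood above both wild-type groups, and it held 63.7% of the signal summed over the 3 groups. At Gm15441 the rebuilt signal was 329.5 in crypt, 413 in WT villus and 1624 in labelled-DKO villus, which held 68.6% of the sum. The order of the groups was that of Txnip. At Arrdc4 it was 127 in WT villus, 143 in crypt and 258 in labelled-DKO villus, or 48.9% of the sum. The mutant villus was again highest. Villus and crypt were in the opposite order at Arrdc4, but their log2 fold change of -0.16 ± 0.16 was about the size of its SE.

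**Figure D2:**
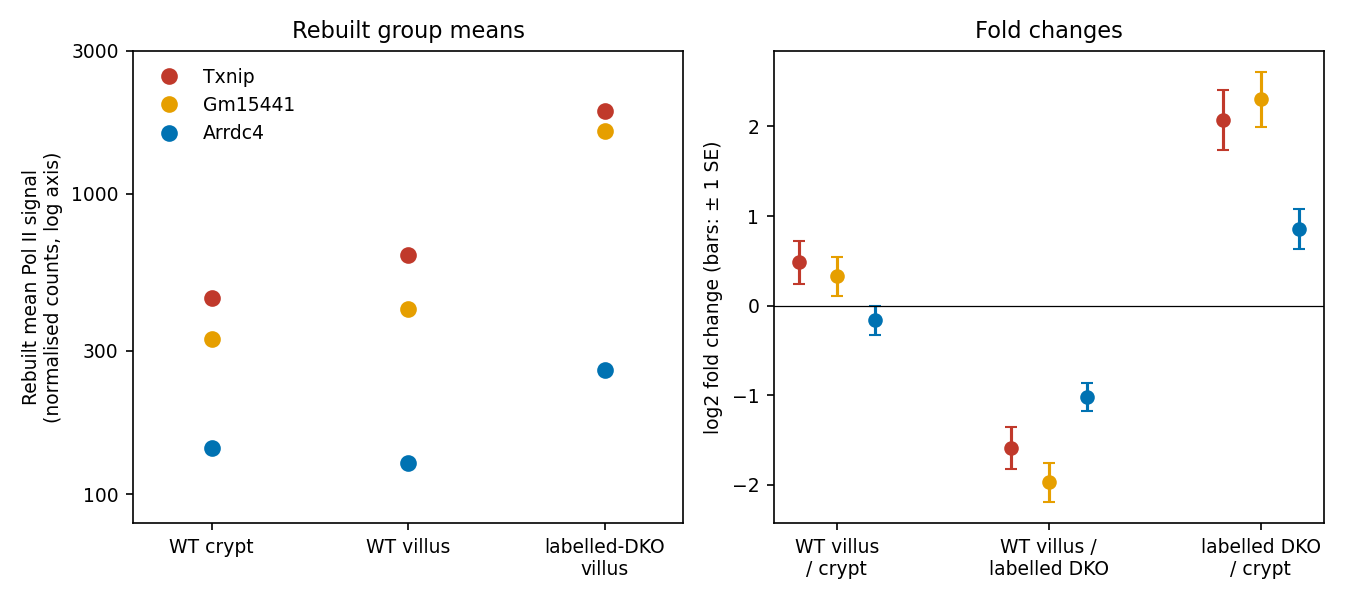
Left, rebuilt mean Pol II signal of Txnip, Gm15441 and Arrdc4 in WT crypt, WT villus and labelled-DKO villus, in normalised counts on a log axis, with 1 point per gene and group and no error available. Right, log2 fold changes in the 3 comparisons with bars of 1 SE, for labelled DKO over crypt the largest SE possible. Labelled-DKO villus is highest at each gene, from 258 at Arrdc4 to 1887 at Txnip, and the WT villus over crypt values lie between -0.16 and 0.48.

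Between WT villus and labelled-DKO villus, the authors' deposited table gave Txnip a log2 fold change of -1.59 ± 0.23 (SE), a 3.01-fold higher signal in the mutant. Txnip was the 32nd lowest of the 6429 genes. Gm15441 had the larger change in the authors' deposited table, at -1.97 ± 0.21 or 3.93-fold, and was the 10th lowest of all genes. Arrdc4 followed at -1.02 ± 0.16, which is 2.03-fold, as the 132nd lowest. Gm15441 and Txnip differed by 0.38 on the log2 scale, a gap whose own error cannot be had from the tables since the genes share libraries and may share reads.

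Between WT villus and WT crypt the log2 fold changes of the same genes were smaller. The authors' deposited table gave Txnip a log2 fold change of 0.48 ± 0.23, which is 1.40-fold higher in villus. Gm15441 had 0.33 ± 0.22, or 1.25-fold. Arrdc4 had -0.16 ± 0.16, with 1.12-fold more signal in crypt. Across all genes the median log2 fold change was -0.04 in this comparison and -0.08 between the genotypes.

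Labelled-DKO villus was also set against WT crypt by subtracting 1 deposited log2 fold change from the other, with the largest SE that independent libraries allow. Txnip came to 2.07 ± 0.33, a 4.20-fold higher signal in labelled-DKO villus and the 11th highest of all genes. Gm15441 came to 2.30 ± 0.30, or 4.93-fold and the 6th highest. Arrdc4 came to 0.86 ± 0.23, or 1.81-fold and the 205th highest. The mutant villus thus stood above the crypt at each of the 3 genes. The 3 comparisons share libraries, so these values are no separate evidence.

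The SEs at Txnip and Gm15441 were large for their signal. Among 145 genes with a mean signal within 1.25-fold of Txnip, the median SE between the genotypes was 0.10 in the authors' deposited table, against 0.23 at Txnip, and 87.6% of them had a lower one. Among 237 such genes for Gm15441 the median was 0.11, against 0.21, and 90.7% were lower. For Arrdc4 the median over 1331 genes was 0.12, against 0.16, and 76.9% were lower. Which libraries spread at these genes cannot be read from the tables.

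The members sat below most genes in the plane of the 2 deposited log2 fold changes. For each, the 3 genes nearest by distance in that plane, over 3 groups of libraries, were taken. Nearest to Txnip was Sgk1, a glucocorticoid-induced kinase gene, at 0.69 ± 0.48 for villus over crypt and -1.61 ± 0.48 for WT over labelled-DKO villus in the authors' deposited tables, a distance of 0.21. Cystm1 and Gsta4, a glutathione transferase gene, followed at 0.25 and 0.27. Gm15441 was the 14th nearest to Txnip, at 0.41. Nearest to Gm15441 were Septin5 at 0.025, Gcnt3, a glycosyltransferase gene of mucin synthesis, at 0.16, and Slc6a6, the taurine transporter gene, at 0.23. Txnip was the 9th nearest to Gm15441. Nearest to Arrdc4 were Akr1c19 at 0.022, Prkab1, a subunit gene of the energy sensor AMPK, at 0.023, and Gm29679 at 0.040. Most of these distances were no larger than the genes' SEs, so the order among near genes is not fixed by the data.

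**Figure D3:**
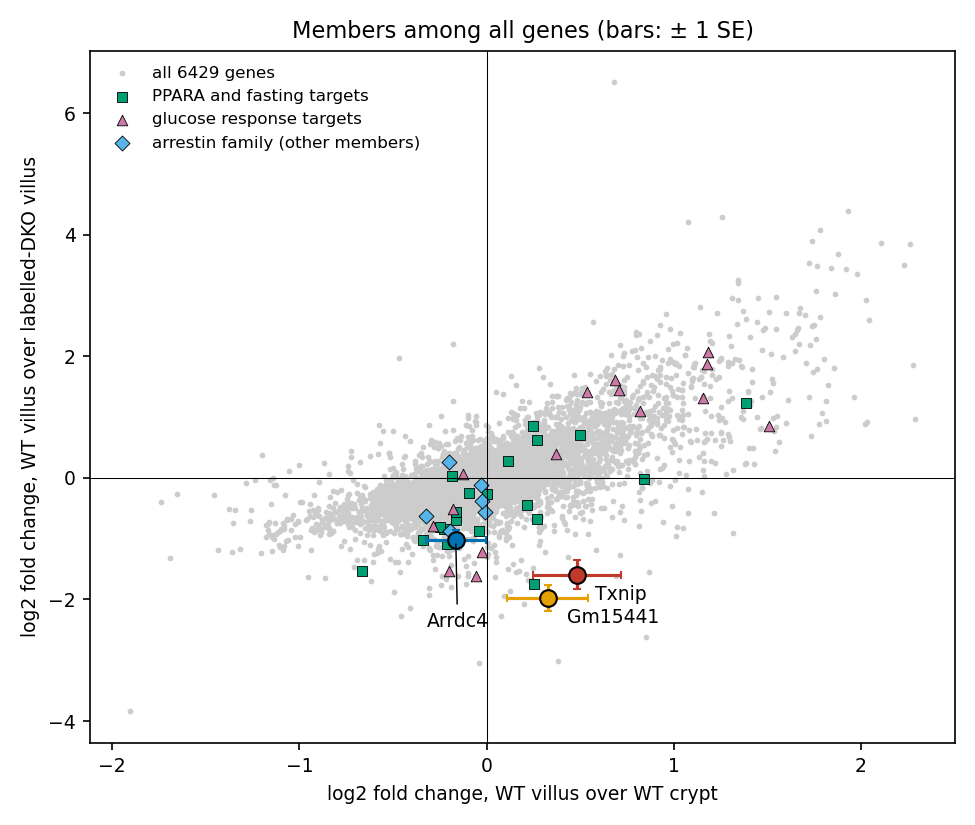
Log2 fold change of WT villus over WT crypt (x axis) and of WT villus over labelled-DKO villus (y axis) for all 6429 genes in grey, with the members and their bars of 1 SE and 3 gene lists in colour. The axes share the WT villus libraries. Txnip and Gm15441 lie below most genes, at -1.59 and -1.97 on the y axis, with Arrdc4 at -1.02 above them.

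The genes around Txnip were read next. Within 250 kb of the Txnip and Gm15441 windows 8 other genes were in the tables, and none within 50 kb. In the authors' deposited table for villus and crypt, 0 of the 8 had a DESeq2 adjusted p under 0.05, and 1 had an unadjusted p under 0.05. Here 18.6% of all genes were called higher in WT villus and 18.8% higher in crypt. Across genotypes 4 of the 8 passed as higher in labelled-DKO villus and 0 in WT villus, against 29.5% and 22.4% of all genes. Centring on the median of all genes moved the split over the whole table from 1895 on the labelled-DKO side and 1443 on the WT side to 1422 and 1710. The largest of these changes was at Nudt17, at -0.97 ± 0.20 (DESeq2 adjusted p 8.28e-06) in the authors' deposited table, 138241 bp from the Gm15441 windows. The median of the 8 was -0.30. No gene of the tables lay within 250 kb of Arrdc4.

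Of the other arrestin genes, most had the sign of Txnip and Arrdc4 between the genotypes. Of 13 genes of the family 8 were in the tables, and 6 were not members. In the authors' deposited table of the genotypes 4 of these 6 passed as higher in labelled-DKO villus and 0 in WT villus, against 29.5% and 22.4% of all genes, with a median of -0.47 against -0.08 for all genes. Arrdc3, which encodes an alpha-arrestin that promotes receptor breakdown, had the largest change, at -0.88 ± 0.12 with a DESeq2 adjusted p of 4.21e-12. Arrdc1, which acts in the budding of vesicles from the cell surface, had -0.56 ± 0.15 (DESeq2 adjusted p 9.04e-04), and Arrdc2 had -0.38 ± 0.17 (0.0425). After centring on the median of all genes Arrdc2 no longer passed, at an adjusted p of 0.122. Vps26a, an arrestin-fold subunit of the retromer that sorts endosomal cargo, had -0.63 ± 0.12 (DESeq2 adjusted p 4.30e-07). The other retromer-type gene Vps26c had -0.11 ± 0.06 and did not pass. Arrb1, which encodes the classical beta-arrestin of receptor desensitisation, had 0.26 ± 0.13 and a DESeq2 adjusted p of 0.0926, which became 0.0257 after centring. Between villus and crypt 1 of the 6 was called higher in crypt and 0 in villus, against 18.8% and 18.6% of all genes. It was Vps26a at -0.32 ± 0.12 (DESeq2 adjusted p 0.0203) in the authors' deposited table, and the rest lay between -0.20 and -0.01.

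The genes listed around thioredoxin, the protein that TXNIP binds, were called in both directions. Of 27 genes 16 were in the tables. Across genotypes 5 passed as higher in WT villus and 5 in labelled-DKO villus, shares near the 22.4% and 29.5% of all genes, with a median of -0.13 in the authors' deposited table. Srxn1, which encodes the repair enzyme sulfiredoxin, had 1.32 ± 0.15, and Txndc17 had 1.07 ± 0.15. Gsr, which encodes glutathione reductase, had -0.80 ± 0.27, and Txnl4a, a gene of the spliceosome, had -0.61 ± 0.12. Txn1, the cytosolic thioredoxin that TXNIP binds, did not pass between the genotypes, at 0.29 ± 0.17 (DESeq2 adjusted p 0.128), and was called higher in villus than crypt, at 0.66 ± 0.17 (4.43e-04). Between villus and crypt 5 genes were called higher in villus and 8 in crypt, against 18.6% and 18.8% of all genes. After centring the counts were 5 and 5, as Txnrd1, Txndc9 and Txndc11 no longer passed, with adjusted p-values of 0.268, 0.0602 and 0.0801. In the authors' deposited table Srxn1 at 1.11 ± 0.15 and Glrx, a glutaredoxin gene, at 1.03 ± 0.16 were highest in villus, and Txnl4a at -0.52 ± 0.13 and Glrx5 at -0.46 ± 0.15 highest in crypt.

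The ubiquitin ligases of the NEDD4 family and their adaptors, which alpha-arrestins recruit to cargo and of which ITCH marks TXNIP for breakdown, were covered by 5 of 11 names. In the authors' deposited table Ndfip2, an adaptor gene, passed with 0.38 ± 0.07 on the WT side between the genotypes and 0.33 ± 0.07 on the villus side against crypt. Smurf2 (-0.26 ± 0.10) and Nedd4l (-0.15 ± 0.06) passed on the labelled-DKO side, and neither passed after centring, with adjusted p-values of 0.155 and 0.348. Smurf2 was also called higher in crypt than villus, at -0.34 ± 0.11. Itch had 0.18 ± 0.09 between the genotypes and a DESeq2 adjusted p of 0.0932, which became 0.0132 after centring. Of the 5, 1 passed on the WT side and 2 on the labelled-DKO side between the genotypes, against 22.4% and 29.5% of all genes. In villus 1 was called higher and in crypt 1, against 18.6% and 18.8%. The list's median was -0.07 between the genotypes and -0.10 between villus and crypt.

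Genes of glucose transport and of TXNIP's partners were covered by 8 of 15 names. Of the 8, 2 were called higher in WT villus and 3 in labelled-DKO villus, shares near the 22.4% and 29.5% of all genes, with a median of -0.18 in the authors' deposited table. Slc5a1, the sodium-coupled glucose transporter gene of the brush border, had 2.29 ± 0.18 for WT over labelled-DKO villus and 1.76 ± 0.18 for villus over crypt. Slc2a9, the urate transporter gene, had 0.45 ± 0.10 and 0.36 ± 0.10. Ddit4, whose product REDD1 works with TXNIP against mTORC1, had -1.29 ± 0.33 between the genotypes (DESeq2 adjusted p 3.16e-04). Hif1a, the oxygen response factor, had -0.57 ± 0.16. Pycard, the inflammasome adaptor gene, was called higher in labelled-DKO villus at -0.53 ± 0.14 and higher in crypt than villus at -0.55 ± 0.15, and Casp1 was called higher in crypt than villus at -0.43 ± 0.16. Slc2a1, the transporter gene GLUT1, and Nlrp3 were not among the genes tested.

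The next list joins factors of the carbohydrate response element with E-box factors and genes of the MYC and MAX network. Most of those tested had the opposite sign to Txnip between the genotypes. Of 13 genes 10 were in the tables, and across genotypes 6 passed as higher in WT villus and 1 in labelled-DKO villus, against 22.4% and 29.5% of all genes, with a median of 0.53 in the authors' deposited table. Mlx, the shared partner of MondoA and ChREBP, had 1.06 ± 0.12 (DESeq2 adjusted p 5.39e-18). Mlxipl, the gene of ChREBP, had 0.66 ± 0.18 (DESeq2 adjusted p 6.49e-04). Mlxip, the gene of MondoA, was not among the genes tested. Max, the partner of MYC, had 0.76 ± 0.06, and the MAX-binding repressor genes Mxi1 and Mxd1 had 1.12 ± 0.10 and 0.92 ± 0.25. Usf1, an E-box factor gene, had 0.38 ± 0.11. Myc was the gene called higher in labelled-DKO villus, at -0.67 ± 0.18 (DESeq2 adjusted p 5.36e-04). Usf2 at 0.15 ± 0.13, Mnt at 0.01 ± 0.14 and Mxd3 at 0.40 ± 0.19 did not pass, although Mxd3 passed after centring with an adjusted p of 0.0229.

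Between villus and crypt, 4 of these 10 genes were called higher in villus and 1 in crypt, against 18.6% and 18.8% of all genes. Their median was 0.32 in the authors' deposited table. Mxd1 had the largest value, at 2.03 ± 0.26. Max had 0.77 ± 0.06, Mxi1 had 0.72 ± 0.10 and Mlx had 0.64 ± 0.12. Myc had -1.06 ± 0.18. Mlxipl did not pass, at -0.16 ± 0.18, and neither did Usf1, at 0.10 ± 0.11, Usf2, at 0.20 ± 0.13, Mnt, at 0.04 ± 0.14, or Mxd3, at 0.44 ± 0.19, the last of which passed after centring with an adjusted p of 0.0358.

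Genes known as targets of sugar through MondoA or ChREBP split into opposite directions. Of 25 genes 15 were in the tables. Across genotypes 9 passed as higher in WT villus and 5 in labelled-DKO villus, against 22.4% and 29.5% of all genes, with a median of 0.86 in the authors' deposited table. The genes higher in WT villus act in fructose and glucose handling, with the fructose transporter gene Slc2a5 at 1.87 ± 0.22, the fructokinase gene Khk at 1.62 ± 0.12 and Pklr, a pyruvate kinase gene, at 1.10 ± 0.15. The genes higher in labelled-DKO villus, as Txnip and Arrdc4 were, were Klf10 at -1.61 ± 0.19 (DESeq2 adjusted p 1.24e-15), Elovl6 at -1.54 ± 0.21 (1.20e-12), Mid1ip1 at -1.22 ± 0.29 (8.98e-05), Klf11 at -0.79 ± 0.12 and Tkt at -0.51 ± 0.15. Klf10 and Klf11 encode Krüppel-like repressors, Elovl6 a fatty acid elongase, Mid1ip1 an activator of acetyl-CoA carboxylase, and Tkt a transketolase of the pentose phosphate pathway. None of these 5 passed between villus and crypt, with values from -0.28 to -0.02. All 9 of the genes higher in WT villus also passed as higher in villus than crypt, up to 1.51 ± 0.23 at the glucose transporter gene Slc2a2. Of all genes 18.6% were called higher in villus and 18.8% in crypt. The 2 comparisons share the WT villus libraries.

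Genes of fatty acid use under PPARA, the receptor tied to Gm15441 in liver, lay mostly on the side of Gm15441. Of 28 genes 20 were in the tables, and across genotypes 13 passed as higher in labelled-DKO villus and 5 in WT villus, against 29.5% and 22.4% of all genes, with a median of -0.50 in the authors' deposited table. Pdk4, the kinase gene that shuts glucose out of oxidation in fasting, had -1.75 ± 0.25 (DESeq2 adjusted p 5.23e-11). Cpt1a, the gene of the gate enzyme of mitochondrial fatty acid entry, had -1.53 ± 0.08 (DESeq2 adjusted p 1.40e-72). Plin2, a lipid droplet coat gene, had -1.09 ± 0.17, and Hadhb and Hadha, the subunit genes of the mitochondrial trifunctional enzyme, had -1.03 ± 0.13 and -0.81 ± 0.09. Ppara itself had -0.85 ± 0.10. The members higher in WT villus included Creb3l3, a fasting-responsive factor gene, at 1.23 ± 0.11, Rxra, the gene of the receptor's partner, at 0.85 ± 0.12, and Ppard at 0.62 ± 0.07. Cyp4a10 and Cyp4a14 were not among the genes tested.

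Between villus and crypt the PPARA list was near the middle of all genes, with a median of -0.02 in the authors' deposited table. Of its 20 genes 4 were called higher in villus and 3 in crypt, shares near the 18.6% and 18.8% of all genes. Creb3l3 passed on the villus side at 1.39 ± 0.12, and Cpt1a had the largest value on the crypt side at -0.66 ± 0.08. Hadhb at -0.34 ± 0.13 and Hadha at -0.25 ± 0.09 were the others in crypt, and neither passed after centring, with adjusted p-values of 0.0636 and 0.0561. Between labelled-DKO villus and crypt, where 6.41% of all genes passed as higher in labelled-DKO villus and 7.19% as higher in crypt, 10 of the 20 passed on the labelled-DKO side and 2 on the crypt side.

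Of 14 genes of FOXO and glucocorticoid signalling, both known to act on Txnip, 10 were in the tables. Across genotypes 5 passed as higher in WT villus and 3 in labelled-DKO villus, against 22.4% and 29.5% of all genes, with a median of 0.08 in the authors' deposited table. Irs2 at 1.15 ± 0.17 and the glucocorticoid-induced gene Tsc22d3 at 1.04 ± 0.22 were highest in WT villus. Sgk1 at -1.61 ± 0.48 and the clock gene Per1 at -0.86 ± 0.26 were highest in labelled-DKO villus, and Klf9 had -0.49 ± 0.11. The receptor gene Nr3c1 did not pass, at -0.25 ± 0.12 (DESeq2 adjusted p 0.0574), and Foxo1 had -0.02 ± 0.07. Foxo3 had 0.18 ± 0.08 (DESeq2 adjusted p 0.0324). Between villus and crypt 4 of the 10 were called higher in villus and 0 in crypt, against 18.6% and 18.8% of all genes. Irs2 at 0.94 ± 0.17 and Tsc22d3 at 0.94 ± 0.22 were highest in villus.

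**Figure D4:**
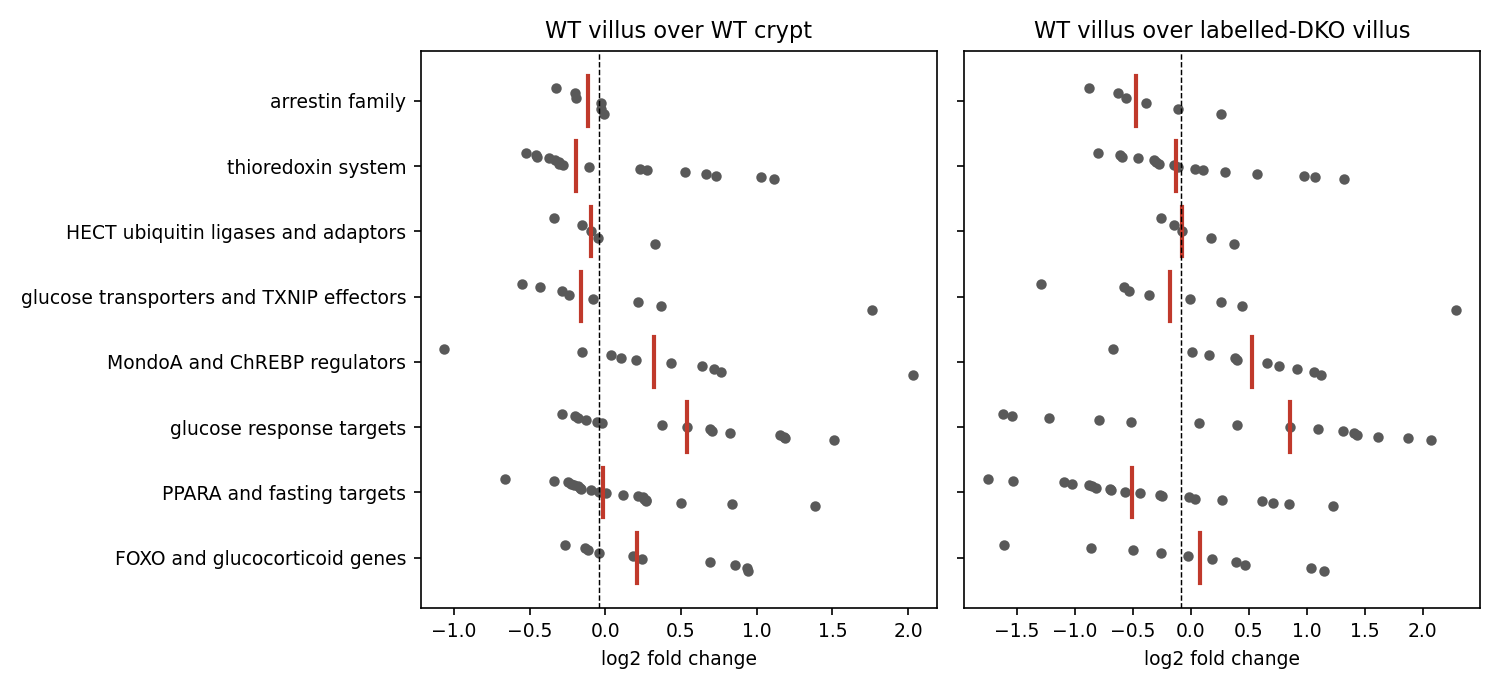
Log2 fold changes of the genes of 8 lists, without Txnip, Gm15441 and Arrdc4, in WT villus over WT crypt (left) and WT villus over labelled-DKO villus (right). Each point is 1 gene, red bars are list medians and the dashed line is the median of all 6429 genes. On the right the medians run from -0.50 for PPARA and fasting targets to 0.86 for glucose response targets, whose genes fall on both sides of 0.

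Immediate early genes, which respond to handling of tissue, moved with the groups too. Of 8 such genes 6 were in the tables, and their rebuilt levels summed to 2885 in WT villus, 1077 in crypt and 1620 in labelled-DKO villus. Across genotypes 4 of the 6 passed as higher in WT villus and 1 in labelled-DKO villus, against 22.4% and 29.5% of all genes. The 1 was Egr1, at -1.18 ± 0.22 in the authors' deposited table. No marker in the tables had a mean signal at 0. Secretory markers summed to 1396, 1073 and 1634 in the same order of groups. Across genotypes 3 of the 6 tested passed as higher in labelled-DKO villus and 0 in WT villus, against 29.5% and 22.4% of all genes. Agr2 (-1.06 ± 0.13), Spink4 and Clca1 passed, while Muc2, Tff3 and Chga did not. Immune markers, with only Cd74 and Gzma of 8 in the tables, summed to 268, 184 and 168. These differed in sign, as Cd74 was called higher in WT villus, at 1.33 ± 0.24, and Gzma had -0.23 ± 0.19 and did not pass. The part of handling and of EDTA time in the values of Txnip, Gm15441 and Arrdc4 was not tested.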

How the data were processed

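Pol II ChIP-seq of duodenal epithelium was listed by the labels for 9 libraries and 3 inputs. Per the submitters' processing notes, reads were mapped to mm9 with Bowtie2 2.2.6, and DESeq2 1.36.0 and featureCounts were used. Per the file headers, featureCounts 2.0.3 counted pairs at mapping quality 30 or more, ignored duplicates and gave a pair to every window it overlapped. The 18 columns of counts carry no names and matched no sample, so they were not used, and no planned test per library was run. Depth per library is therefore unknown. Window positions were used.

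The authors deposited, for each gene, a mean signal (size-factor-scaled counts) and the log2 fold change with SE, the Wald score, the p-value and its adjusted form. Per the file headers these are DESeq2 results, and the window counted is not given in the sources used here. The adjusted p-values equalled a Benjamini-Hochberg adjustment over 6429 genes to within 3.76e-07. A gene was called at an adjusted p under 0.05. Signs followed the table names. With these signs, rebuilt group means fitted 90.1% of the sum of squares of the difference in squared SEs, against 51.6% or less with any sign reversed.

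Group means, the labelled-DKO over crypt difference, its p-values (adjusted over all genes) and motif matches were computed with Python 3.11.15, pandas 2.3.3, numpy 2.4.6 and scipy 1.17.1, after testing on simulated data. RefSeq transcripts gave gene names to windows, and promoter sequences are RefSeq's (GRCm38.p6). The members and lists were chosen with earlier results of these data known. Named were, by rule, all tested genes of the arrestin list and of the list of response element and MYC network genes. The rule also named up to 2 called genes per direction of each other list, neighbours within 50 kb and the 3 nearest genes. Further names, among them Nudt17, Txn1, Itch, Khk, Pklr, Mid1ip1, Klf11, Tkt, Plin2, Hadha, Ppara, Ppard, Klf9, Nr3c1, Foxo1, Foxo3 and genes not tested, were chosen after their values were seen. Whether libraries of a group came from separate mice is not stated, so errors may be technical. Protein identity between the arrestins was not analysed here. Some genes that the rule would name are not reported here.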

Additional observations from a re-analysis of the deposited data

How the results depend on the processing

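The deposited tables leave few settings to change. A log2 fold change beyond 1 left 285 of 2403 calls for WT villus against crypt, 559 of 3338 for the genotypes and 223 of 874 for labelled-DKO villus against crypt, as fewer genes can pass a limit. An adjusted p under 0.01 left 558 in the last comparison. Centring moved the balance between the genotypes from 1443 genes on the WT side and 1895 on the labelled-DKO side to 1710 and 1422. The log2 fold changes of the 3 members kept their direction after centring in each comparison and moved by less than their SE, to -1.51 for Txnip, -1.89 for Gm15441 and -0.94 for Arrdc4 between the genotypes. With 2 libraries in any 1 group in place of equal groups, the 27 recomputed group means moved by 2.31 to 15.2%. Of the counts by list and direction, 34 of 52 moved by over 1.5 times with the limit of 1, 8 with an adjusted p under 0.01, 5 after centring and 5 when genes under a mean signal of 100 were dropped. In that case 2 of the 4 called arrestin genes were left, as Arrdc1 and Arrdc2 lie below it. In the 200 bases before the start the Arrdc4 promoter held 4 CCAAT matches in place of 6, and the Txnip matches were the same.

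No paired analysis was possible because the count columns are unnamed, without replicate numbers, and the tables give no values per library. For the same reason leaving out each replicate, other size factors and other models were not run, and no value is checked against the loss of 1 library.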

Other observations

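Promoters with the letters CAAAGTCCA, an HNF4 motif absent from the windows of Txnip and Arrdc4, were looked up across the tables. Of 42 genes with a match, 21 (50.0%) passed as higher in WT villus in the authors' deposited genotype table and 7 (16.7%) as higher in labelled-DKO villus, with a median log2 fold change of 0.26. For the 21 genes with CAAAGTTCA the counts were 11 and 5 and the median 0.28. Over all 5159 genes with a RefSeq promoter other than the members, 22.0% were called higher in WT villus and 29.8% higher in labelled-DKO villus. These shares are descriptions and were not tested.

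The paired CACGNG letters of the Txnip promoter were in the promoters of 3 other genes of the tables. In the authors' deposited table of the genotypes Nfkb2 had 0.14 ± 0.12, Man2b2 0.07 ± 0.11 and A430005L14Rik 0.10 ± 0.15, and none of them was called in either comparison.

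The genes whose mean signal exceeded that of a gene with a window around theirs were, beside Txnip, 5730408K05Rik, G630025P09Rik, Gm15772, Ndufs5-ps, Nr2c2ap and Scamp3. Of the 7 pairs, 4 were antisense. With 1 transcript at each gene, 5730408K05Rik had a mean signal of 138 against 78.6 at Lbhd1, and G630025P09Rik 104.0 against 70.7 at Tmem102. Gene body counts on the minus strand include the promoter for all 21190 transcripts, so a ratio of promoter to gene body counts from the deposited files means different things on the 2 strands.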
